A study of Mus musculus with 16 samples.

Results

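The Tfap2c dsRNA response was compared between 2 crosses of mouse embryos in all 16 libraries of the series. Members were chosen by expression alone: of 43437 genes in the table, the 11422 that reached 1 FPKM in 4 or more libraries entered the test for a response that differed between the crosses. FPKM is a count of sequenced fragments divided by transcript length and by the library's total. Zygotes had been injected with dsRNA, double-stranded RNA that leads to decay of the transcript it matches, and each library was made from 10 embryos at the 8-cell stage, about 80 cells. In cross A the mothers were C57BL/6J×CBA/J hybrids, and in cross B they were C57BL/6J×DBA/2J hybrids. Each cross had 2 libraries with dsGFP (the control, against a gene the embryo lacks), 2 with Tead4KD, 2 with Tfap2cKD and 2 with DoubleKD, which carried both knockdown dsRNAs. The 4 libraries of a cross without Tfap2c dsRNA were thus dsGFP and Tead4KD, and the 4 with it were Tfap2cKD and DoubleKD. Fathers are labelled C57BL/6J×DBA hybrids in both crosses, with a number after DBA that changes along the sample list (9 distinct names for 16 libraries). Whether the fathers truly differed is not known from the labels, and their strain was not used. No label gives a batch, so cross and batch cannot be told apart. Nothing states that libraries came from separate matings or injection days, so p-values speak only of the spread between embryo pools, which may be technical.

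Tfap2c encodes AP-2 gamma, a transcription factor that binds GC-rich palindromes and is best known in the early embryo for the trophectoderm, the outer layer that forms the placenta. In the mouse it is present before the blastocyst forms and acts there with Tead4, the TEAD factor that pairs with the Hippo effector YAP. The mothers of the crosses differ in 1 of their parental strains. The response to the same dsRNA can thus be read in 2 crosses, but not assigned to the mothers' strains, since a batch may differ too. The question was which genes responded differently, in size or in direction.

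Every library expressed all 8 of the embryo markers looked up, and FPKM sums ran from 799300 to 874400. Libraries held 10049 to 10504 genes at 1 FPKM or more, on average 151 more in cross B (exact permutation of 8 against 8 libraries, p = 0.0331). Mitochondrially encoded genes took 10.3 ± 1.18% of FPKM in the 8 libraries of A and 8.3 ± 1.06% in the 8 of B (SD; p = 0.00482 by the same exact permutation). Of the cumulus markers 14 of 15 and of the sperm markers 9 of 9 never reached 1 FPKM. The exception was Amhr2, at 11 to 29.4 FPKM over all libraries, which rose in B with Tfap2c dsRNA by 0.64 in log2(FPKM + 1) (limma, adjusted p = 0.0174), with a difference of 0.25 in A that did not pass (adjusted p = 0.382). The summed level of the cumulus markers was 15.1 to 24.6 FPKM without and 19.9 to 25.9 FPKM with Tfap2c dsRNA in cross A, and 11.3 to 22.6 and 21.8 to 30.2 FPKM in cross B. Of 8 blood markers, 5 never reached 1 FPKM, with Hbb-bs, Hbb-bt and Ptprc at 0, but Hba-a1, Hba-a2 and Cd52 were present. The summed level of the blood markers was 30.8 to 54.7 FPKM without and 46.2 to 82.2 FPKM with Tfap2c dsRNA in cross A. In cross B it was 12.9 to 29.6 FPKM without and 36.8 to 64.7 FPKM with it. The part of these measures in the responses was not tested. Relative depth, estimated from the smallest steps of low FPKM values, ran from about 0.902 to 1.1 of the mean, and the absolute depth is unknown. Only values close to a gene's lowest value above 0 entered, so this estimate could not show a large difference in depth.

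In what follows, the 4 values of a cell of the design (the 4 libraries of a cross with, or without, Tfap2c dsRNA) are given in the order dsGFP 1, dsGFP 2, Tead4KD 1, Tead4KD 2 without Tfap2c dsRNA, and Tfap2cKD 1, Tfap2cKD 2, DoubleKD 1, DoubleKD 2 with it. A response is the difference of log2(FPKM + 1) between libraries with and without Tfap2c dsRNA, fitted with limma and with Tead4 dsRNA as a covariate, and it understates the change of low genes. The difference between crosses is always the response in B minus the response in A. Genes pass here when their p, adjusted by Benjamini-Hochberg across all 11422, is under 0.05.

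Tfap2c mRNA was depleted in both crosses, to levels that overlapped between them. Tfap2c (ENSMUSG00000028640) lies on chromosome 2 at 172545678 to 172558622 of mm10. In cross A it stood at 43.2, 38.8, 37.1 and 34.8 FPKM without the dsRNA and at 13.9, 15.4, 16.4 and 16.1 FPKM with it. In cross B it stood at 28.3, 32.5, 33.7 and 33.4 FPKM without and at 16.1, 17.8, 16.4 and 15.7 FPKM with it. No library with the dsRNA reached the lowest without it in either cross. The mean fell from 38.5 ± 3.53 to 15.5 ± 1.14 FPKM in A, to 40.2% of its level, and from 31.97 ± 2.503 to 16.5 ± 0.924 FPKM in B, to 51.7% (SD, n = 4). The exact two-sided permutation p was 0.0286 in each cross, the smallest that 4 against 4 libraries can give. The responses were -1.26 and -0.91, and their difference of 0.35 (95% interval 0.08 to 0.63) did not pass (limma, adjusted p = 0.163). Without the dsRNA, Tfap2c stood higher in every A library than in any B library.

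Tead4 mRNA was read after Tfap2c dsRNA alone, since the 2 factors act together. In the libraries without Tead4 dsRNA it went from 58.4 and 46.5 to 19 and 25.9 FPKM in cross A, or 42.8% of the dsGFP mean. In cross B it went from 47.7 and 41.8 to 37.4 and 30.8 FPKM, or 76.2%. With 2 libraries against 2 the smallest exact permutation p is 0.333, which both comparisons gave. The difference between crosses over all 16 libraries was 0.66 (95% interval -0.17 to 1.49) and did not pass (limma, adjusted p = 0.392).

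Genes that passed in one cross mostly had the same sign in the other. Within cross A 2784 genes passed (24.4% of those tested), 1533 higher and 1251 lower. Within cross B 3779 passed (33.1%), 1783 higher and 1996 lower. When each cross was fitted from its own 8 libraries, 2735 genes passed in A (23.9%) and 3242 in B (28.4%). Those fits share no library, and the 1252 genes that fell in A alone had the same sign in B in 94.3% of cases, with a median response there of 0.892 of that in A. The 1740 that fell in B alone had the same sign in A in 88.3%, at a median of 0.574. Among genes that rose, 90% of the 1483 of A and 91.8% of the 1502 of B kept their sign in the other cross, at medians of 0.717 and 0.636. Genes picked for passing in one cross have estimates that lean high there, so ratios under 1 are no measure of attenuation. Across all genes the 2 responses had Pearson's r = 0.604 and a Spearman rank correlation of 0.615, a description over genes, which are not independent.

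The response differed between crosses for 145 genes, 1.27% of those tested. It was higher in B for 62 (0.543%) and lower in B for 83 (0.727%), and 2080 genes had an unadjusted p under 0.05. Rescaling the libraries turned this split: median ratios gave 75 higher and 57 lower, and quantile normalization gave 78 and 58. Of the 145 genes, 38 had a response that passed in A and not in B, and 63 one that passed in B and not in A. A further 26 passed in both crosses in 1 direction, and 18 passed in both in opposite directions. With Tfap2c dsRNA the gap between the crosses was larger for 77 of the 145 genes, and without it for the other 68.

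**Figure D1:**
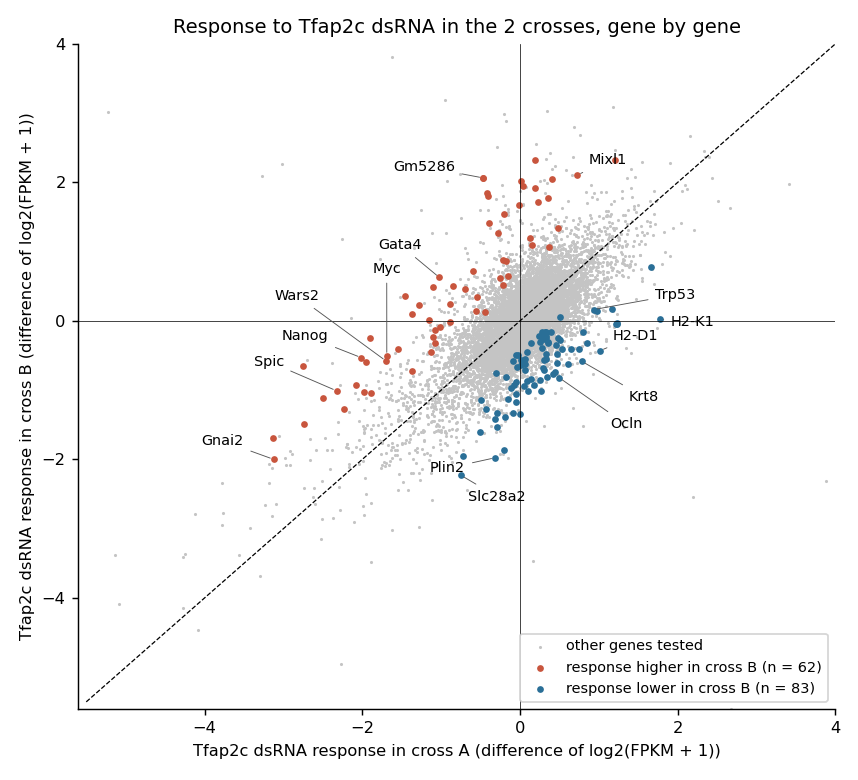
Response to Tfap2c dsRNA of each gene in cross A (x axis) and cross B (y axis), both as differences of log2(FPKM + 1), with equal responses on the dashed line. The 62 genes in red lie above the line (response higher in B) and the 83 in blue below it, and 10 genes that did not pass lie beyond the axes.

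The count rests on single libraries. Leaving out 1 library at a time gave from 7 genes (without Tead4KD B2) to 366 (without DoubleKD B2), and 12 of the 16 libraries moved it by more than 1.5 times. It was 16 without Tfap2cKD A2, 20 without Tfap2cKD B1, 26 without DoubleKD B1, 27 without Tfap2cKD A1, 30 without Tead4KD B1 and 31 without Tead4KD A1. It was 60 without dsGFP A1, 61 without Tead4KD A2, 82 without dsGFP B2 and 87 without dsGFP A2. All 145 genes kept their sign in each of these fits and had an unadjusted p under 0.05 there. They were picked on the same libraries that these fits reuse, so this is no separate support. Only 6 passed in all 16: H2-K1, Sec11c, Wars2, Gnai2, Gm5532 and Tbc1d1. In at least 12 of the fits 21 genes passed, and 58 passed in at most 4. For genes that passed, the number of these 16 fits in which they passed is given as well.

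**Figure D2:**
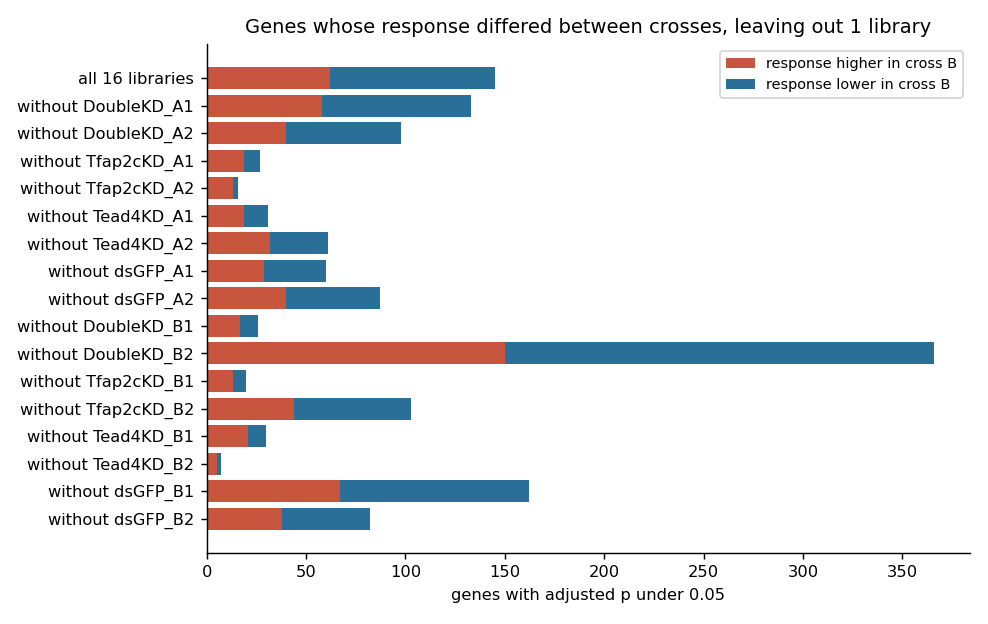
Genes whose response differed between crosses at an adjusted p under 0.05 (bar length) with all 16 libraries and with each left out, split into response higher in B (red) and lower in B (blue). The count runs from 7 without Tead4KD B2 to 366 without DoubleKD B2, against 145 with all libraries.

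Gnai2, Wars2 and Spic fell in both crosses, and fell further in cross A. They were chosen after their values were seen, as were Myc, Gata4, Mixl1, Tbc1d1, Sec11c, Fth1, Eif4ebp1, Hspd1, Hspe1 and Tmem254a below. Wars2 (ENSMUSG00000004233, chromosome 3, 99140107 to 99221230) encodes the mitochondrial tryptophanyl-tRNA synthetase. In cross A it stood at 32.8, 33.4, 33.4 and 39.3 FPKM without Tfap2c dsRNA and at 9.001, 9.78, 12.3 and 9.19 FPKM with it. In cross B it stood at 31.7, 30.6, 43.5 and 40.5 FPKM without and at 21.1, 22.2, 29.8 and 23.3 FPKM with it. The crosses overlapped without the dsRNA, and with it every A library lay below every B library. The response was -1.70 in A and -0.58 in B, a difference of 1.12 (95% interval 0.80 to 1.44; limma, adjusted p = 0.00953; 16 of 16 fits).

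Wars2 held the AP-2 palindrome GCCNNNGGC 3 times in its RefSeq window, which is why these stretches are shown. A window is the 250 bases before a transcript start listed by RefSeq; the start used for Wars2, at 99141090, lies 983 bases inside the whole gene record whose bounds are given above, so the sites lie within that record. The motif reads the same on both strands. Stretches are 5′ to 3′ from RefSeq (GRCm38.p6), with the motif in capitals.
Wars2, first site, chr3:99140923-99140951, plus strand: aaacactaaaGCCTAGGGCcacctattcc
Wars2, second site, chr3:99140993-99141021, plus strand: agctactttgGCCAGCGGCagcccagagg
Wars2, last site, chr3:99141065-99141089, plus strand: gtcattccggGCCGGCGGCcccgcc
Among the genes that differed, 22 of the 106 with a RefSeq window held it (20.8%), against 22.5% of the 8012 tested genes with a window. A gene counted if any of its windows held the motif. Of all 32851 windows taken singly 13.7% held it, a share of windows that is unlike a share of genes. The motif was present in 6 of 40 genes higher in B (15%) and in 16 of 66 lower in B (24.2%). A match is a description of letters, and binding was not measured here.

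Gnai2, an inhibitory G protein alpha subunit (ENSMUSG00000032562, chromosome 9, 107614125 to 107635391), started higher in cross A and ended alike. In A it stood at 33.2, 35.2, 53.3 and 53.5 FPKM without and at 3.23, 3.11, 5.795 and 4.395 FPKM with Tfap2c dsRNA. In B it stood at 20.2, 20.7, 26.2 and 28.3 FPKM without and at 4.65, 4.23, 7.26 and 4.92 FPKM with it. The 2 crosses did not overlap without the dsRNA and did overlap with it. Both responses passed, at -3.12 in A and -1.998 in B, with a difference of 1.13 (95% interval 0.78 to 1.47; limma, adjusted p = 0.0135; 16 of 16 fits). Without the Tead4 term the adjusted p of Gnai2 was 0.0902.

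Spic, an ETS-family transcription factor (ENSMUSG00000004359, chromosome 10, 88675269 to 88683023), was among the abundant transcripts. In cross A it fell from 1489 ± 134 to 305 ± 90.8 FPKM, with single libraries at 214, 305, 429 and 272 FPKM with the dsRNA. In cross B it fell from 1350 ± 171 to 679 ± 149 FPKM, with single libraries at 572, 543, 860.2 and 739 FPKM with the dsRNA (SD, n = 4 in each cell). With the dsRNA the A libraries all lay below the B libraries, while without it the crosses overlapped. The difference was 1.32 (limma, adjusted p = 0.0231), and it passed in 15 of 16 fits, missing without Tead4KD B2 (adjusted p = 0.0601).

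Nanog, the homeodomain factor of the pluripotent lineage (ENSMUSG00000012396, chromosome 6, 122707489 to 122714633), fell in cross A, and its response in B did not pass. In A it stood at 26.7, 27.7, 35.1 and 50.5 FPKM without and at 6.25, 5.48, 11.8 and 8.29 FPKM with Tfap2c dsRNA, and no library overlapped. B libraries held 25.2, 27.9, 36.97 and 19.1 FPKM without and 11.9, 10.8, 31.99 and 25.6 FPKM with it. Within B both Tfap2cKD libraries were below every library without the dsRNA, and both DoubleKD libraries were within their range. The responses were -2.01 in A and -0.53 in B (limma, adjusted p = 0.101 in B), a difference of 1.48 (adjusted p = 0.0465; 5 of 16 fits). The difference between crosses was 0.88 without and 2.08 with Tead4 dsRNA, and the comparison of these 2 values did not pass (adjusted p = 0.752). Fewer cells of a type and less RNA per cell cannot be told apart in these pools.

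Of 30 measured pluripotency genes Nanog alone passed for a difference; 7 had an unadjusted p under 0.05 toward higher in B and 2 toward lower, where over all genes these were 788 and 1292 of 11422. Tdgf1, the Nodal co-receptor, fell from 104 ± 16.9 to 11.2 ± 3.94 FPKM in A and from 66.6 ± 1.58 to 14.9 ± 4.11 FPKM in B, and its difference of 1.02 did not pass (95% interval 0.49 to 1.56; limma, adjusted p = 0.0571). Pou5f1 fell in both crosses, by 1.06 in A and 1.27 in B on the log2 scale, with a difference of -0.21 (95% interval -0.99 to 0.58). Esrrb fell in both as well, with a difference of 0.35 (95% interval -0.13 to 0.82). In A 14 of the 30 fell and in B 17, against 11% and 17.5% of all genes tested.

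Myc and Gata4, both transcription factors, also had a higher response in B. Myc (ENSMUSG00000022346, chromosome 15, 61985341 to 61990361) stood at 46.5, 42.3, 33.4 and 42.8 FPKM in A without and at 10.7, 14.6, 15.4 and 8.61 FPKM with Tfap2c dsRNA. The B values were 58.9, 49.3, 79.3 and 56.3 FPKM without and 47.1, 36.7, 44.2 and 40.8 FPKM with it. It fell in both crosses without overlap, by 1.69 in A and 0.50 in B on the log2 scale (difference 1.18, limma, adjusted p = 0.038; 4 of 16 fits). Gata4, a zinc-finger factor of the primitive endoderm and heart (ENSMUSG00000021944), moved in opposite directions. It fell in A, from 13.1 ± 4.12 to 6.21 ± 3.11 FPKM, and rose in B, from 6.16 ± 1.56 to 9.92 ± 1.42 FPKM (difference 1.65, adjusted p = 0.0261; 11 of 16 fits). In A the cells overlapped, since the lower dsGFP library of Gata4 was at 8.67 FPKM and the higher DoubleKD library at 9.79 FPKM. Libraries alike in Tead4 dsRNA did not overlap there. Gata4 stood at 11.04 and 8.67 FPKM in dsGFP A against 3.44 and 3.79 FPKM in Tfap2cKD A. It stood at 14.4 and 18.1 FPKM in Tead4KD A against 7.83 and 9.79 FPKM in DoubleKD A.

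**Figure D3:**
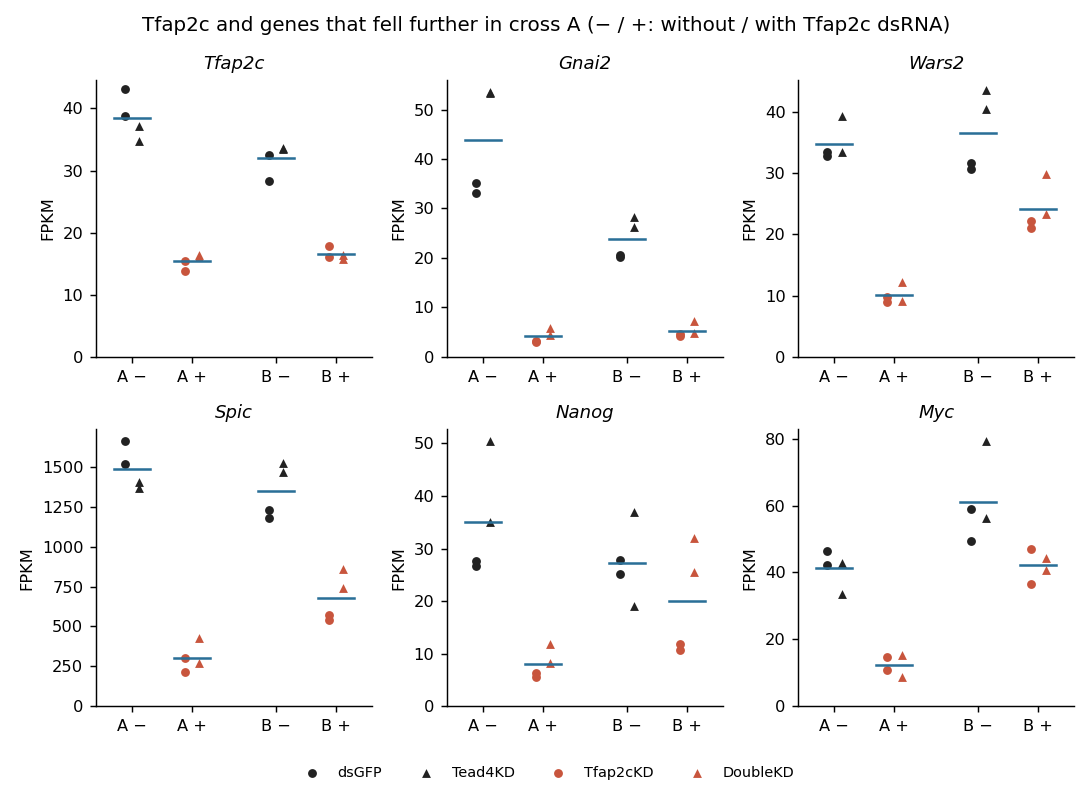
FPKM in each library of Tfap2c and of 5 genes that fell further in cross A, without (black) and with (red) Tfap2c dsRNA in crosses A and B; circles are libraries without and triangles with Tead4 dsRNA, and blue lines are means of 4. Wars2 and Spic end lower in A than in any B library, Gnai2 starts higher in A, and the Nanog points of B with the dsRNA split by Tead4 dsRNA.

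A higher response in B was also measured for Tbc1d1 and Mixl1. Tbc1d1, a Rab GTPase-activating protein (ENSMUSG00000029174, chromosome 5, 64156305 to 64351486), stood at 4.85, 4.802, 6.08 and 6.701 FPKM without and 2.31, 3.57, 3.38 and 4.31 FPKM with the dsRNA in A. In B it stood at 2.51, 2.15, 2.65 and 3.37 FPKM without and 5.23, 5.197, 5.298 and 4.26 FPKM with it. It fell in A and rose in B with no overlap in either cross (responses -0.60 and 0.72, difference 1.31, limma, adjusted p = 0.0185; 16 of 16 fits). Mixl1, a homeobox gene of mesendoderm, rose in both crosses, from 11.4 ± 3.13 to 19.2 ± 3.11 FPKM in A and from 7.79 ± 3.08 to 35.3 ± 3.93 FPKM in B (difference 1.38, adjusted p = 0.0339; 6 of 16 fits). Gm5532, a predicted gene, rose in B, from 3.88 ± 1.7 to 11.8 ± 3.54 FPKM, and in A went from 8.12 ± 1.64 to 5.95 ± 1.23 FPKM (adjusted p = 0.146). Its difference was 1.81 (adjusted p = 0.014; 16 of 16 fits).

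H2-K1 had the lowest adjusted p of all genes tested: it rose in cross A and did not move detectably in B. H2-K1 and H2-D1 encode the heavy chains of classical MHC class I molecules, which present peptides on the cell surface. H2-K1 (ENSMUSG00000061232, chromosome 17, 33996012 to 34000619) stood at 6.901, 6.01, 6.64 and 4.83 FPKM in A without Tfap2c dsRNA and at 21.9, 27.5, 17.2 and 27.7 FPKM with it. The B levels were 11.2, 10.5, 12.7 and 11.5 FPKM without and 12.3, 11.6, 9.996 and 13.1 FPKM with it. The A libraries with the dsRNA were the highest of all 16 and those without were the lowest. The response was 1.78 in A and 0.03 in B, a difference of -1.75 (95% interval -2.20 to -1.30; limma, adjusted p = 0.00671; 16 of 16 fits, adjusted p at most 0.0298).

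H2-D1 (ENSMUSG00000073411, chromosome 17, 35263094 to 35267497) moved likewise in A. It stood there at 4.54, 5.16, 11.2 and 7.803 FPKM without and at 12.7, 13.8, 11.6 and 23.1 FPKM with the dsRNA. B libraries were at 18.7, 19.7, 33.6 and 30.3 FPKM without and at 18.8, 15.1, 19.5 and 19.7 FPKM with it. It rose in A with a response of 1.02, and the response of -0.43 in B did not pass (limma, adjusted p = 0.0938). The difference was -1.45 (adjusted p = 0.0261; 11 of 16 fits). These genes are close copies of each other and vary between mouse strains, so how reads were divided among them is uncertain.

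The likeness of H2-K1 and H2-D1 extends to the bases before their starts, and both hold 1 AP-2 palindrome, shown in capitals in RefSeq sequence (GRCm38.p6), 5′ to 3′. The 29 bases around it are identical in the 2 genes.
H2-K1, chr17:34000450-34000478, minus strand: gggtggggaaGCCCAGGGCtggggattcc
H2-D1, chr17:35262903-35262931, plus strand: gggtggggaaGCCCAGGGCtggggattcc
The full window of H2-D1 before its start, chr17:35262844-35263093 on the plus strand, shows where the palindrome lies.
H2-D1, 250 bases: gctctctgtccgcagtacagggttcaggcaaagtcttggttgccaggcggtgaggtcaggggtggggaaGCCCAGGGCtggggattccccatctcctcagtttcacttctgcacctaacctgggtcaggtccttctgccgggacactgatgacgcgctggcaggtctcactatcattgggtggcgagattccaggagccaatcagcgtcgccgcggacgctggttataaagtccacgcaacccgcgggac
The motif begins 181 bases before the start of H2-D1. RefSeq lists 2 starts for H2-K1, at 34000347 and 34000333, which lie 272 and 286 bases inside the gene record, and the motif begins 121 and 135 bases before them. Its presence says nothing of whether AP-2 gamma binds there.

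Trp53, which encodes the p53 tumour suppressor (ENSMUSG00000059552, chromosome 11, 69580348 to 69591873), rose in A and met the level of B. It stood at 22.8, 23.5, 27.7 and 30.2 FPKM in A without and at 56.5, 44.8, 50.5 and 50.7 FPKM with Tfap2c dsRNA, and the cells did not overlap. Cross B had 34.9, 37.7, 45.3 and 50.9 FPKM without and 41.98, 48.8, 46.7 and 50.6 FPKM with it, and they did. Within B, dsGFP and Tfap2cKD libraries did not overlap, and Tead4KD and DoubleKD libraries did. The difference was -0.77 (limma, adjusted p = 0.0261; 10 of 16 fits). Cdkn1a, the best known p53 target, rose in both crosses, and its difference of -0.08 did not pass (95% interval -0.92 to 0.76). Of 25 measured p53 and stress genes, only Trp53 passed for a difference, against 1.27% of all genes. The Tmem254a, Tmem254b and Tmem254c copies rose in A and not detectably in B (differences -1.26, -1.27 and -1.28, each passing in 5 of 16 fits). Their near-identical sequences cannot be counted apart with certainty. In B, Tmem254a stood at 18.8 and 15.6 FPKM in dsGFP and at 21.99 and 22.4 FPKM in Tfap2cKD. It stood at 34.5 and 33.02 FPKM in Tead4KD and at 26.01 and 23.6 FPKM in DoubleKD. Its response in B thus averages a rise without and a fall with Tead4 dsRNA, a contrast that was not tested.

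**Figure D4:**
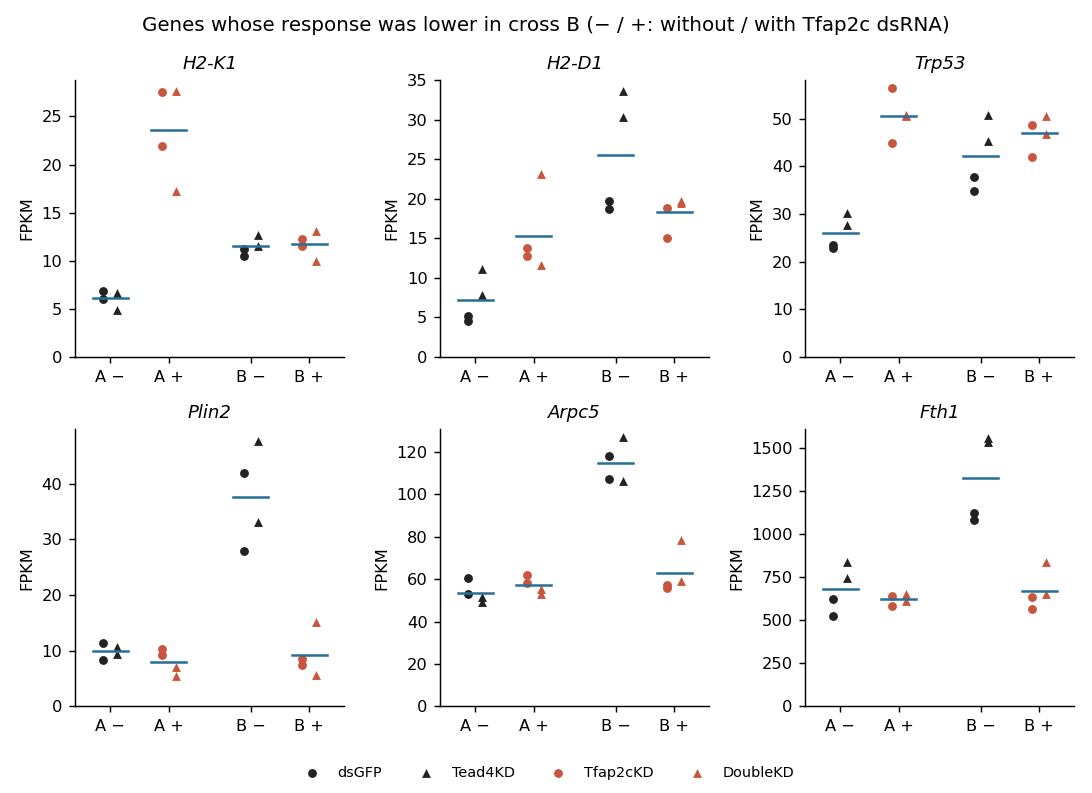
FPKM in each library of 6 genes whose response was lower in cross B, without (black) and with (red) Tfap2c dsRNA; circles are libraries without and triangles with Tead4 dsRNA, and blue lines are means of 4. H2-K1, H2-D1 and Trp53 rise in A, whereas Plin2, Arpc5 and Fth1 start higher in B than in any A library and fall there.

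In another group the crosses differed before and met after Tfap2c dsRNA. Sec11c, a catalytic subunit of the signal peptidase complex (ENSMUSG00000024516), stood at 44.7, 45.4, 51.2 and 50.8 FPKM in A without and at 63.3, 48.2, 55.5 and 51.3 FPKM with it. In B it stood at 96.6, 116, 130.04 and 125 FPKM without and at 56.1, 57.8, 56.99 and 72.3 FPKM with it. It fell in B, where no library overlapped, and its response of 0.18 in A did not pass (limma, adjusted p = 0.241). The difference was -1.11 (95% interval -1.42 to -0.80; adjusted p = 0.00953; 16 of 16 fits). Of the B libraries with the dsRNA, DoubleKD B2 was the highest for Sec11c and also for Plin2, Arpc5, Fth1 and Eif4ebp1.

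Fth1, the ferritin heavy chain that stores iron (ENSMUSG00000024661, chromosome 19, 9980600 to 9985111), followed the same course at a high level. In A it stood at 526, 624, 839 and 743 FPKM without and at 641, 583, 609.8 and 655 FPKM with the dsRNA. The B libraries held 1125, 1083, 1536 and 1559 FPKM without and 563, 635, 653 and 838 FPKM with it. It fell in B, and the difference was -0.86 (limma, adjusted p = 0.0231; 13 of 16 fits). Plin2, the coat protein of lipid droplets (ENSMUSG00000028494, chromosome 4, 86626910 to 86670217), fell in B from 27.8, 41.9, 33.1 and 47.7 to 8.49, 7.46, 5.61 and 15.2 FPKM. In A it stood at 8.39, 11.4, 10.6 and 9.46 FPKM without and at 9.28, 10.2, 5.36 and 7.11 FPKM with the dsRNA, and its response of -0.31 did not pass. The difference of Plin2 was -1.66 (95% interval -2.42 to -0.90; adjusted p = 0.0386; 3 of 16 fits). Its 1 AP-2 palindrome begins 24 bases before the listed transcript start at 86670059, which lies 158 bases inside the bounds of the whole gene record.
Plin2, chr4:86670065-86670093, minus strand: gggttcagcgGCCCCAGGCagctgggcta

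Arpc5, Ocln, Krt8 and Slc28a2 had lower responses in B. Arpc5, a subunit of the Arp2/3 actin nucleator (ENSMUSG00000008475, chromosome 1, 152766542 to 152775580), stood at 107, 118, 106 and 127 FPKM in B without and at 55.95, 57.4, 59.04 and 78.6 FPKM with Tfap2c dsRNA. In A it stood at 53.1, 60.7, 51.7 and 49.04 FPKM without and at 61.8, 58.2, 53.01 and 55.4 FPKM with it. It fell in B and its response in A did not pass (-0.87 and 0.09), and the difference was -0.96 (limma, adjusted p = 0.0231), which passed in 15 of 16 fits and missed without Tead4KD B2 (0.0601). Ocln, which encodes the tight junction protein occludin, fell in B from 23 ± 7.89 to 12.3 ± 2.98 FPKM, and in A went from 9.81 ± 1.53 to 14.3 ± 2.05 FPKM (adjusted p = 0.0612 in A; difference -1.32, adjusted p = 0.0282; 6 of 16 fits). Krt8, a keratin of simple epithelia and the trophectoderm, rose in A from 7.97 ± 2.07 to 14.4 ± 2.45 FPKM, and in B went from 22.8 ± 7.33 to 14.5 ± 2.899 FPKM (adjusted p = 0.0538 in B; difference -1.37, adjusted p = 0.0465; 3 of 16 fits). Slc28a2, a nucleoside transporter, fell in both crosses, from 0.888 ± 0.307 to 0.119 ± 0.138 FPKM in A and from 5.42 ± 1.85 to 0.4196 ± 0.647 FPKM in B (difference -1.48, adjusted p = 0.0471; 2 of 16 fits). In A it started under 1 FPKM, where log2(FPKM + 1) understates a fall, so the difference depends on that scale. Under the other settings of the limma fit Slc28a2 passed in 3 of 9, with an adjusted p of up to 0.351.

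Of 50 measured actin regulators Arpc5 alone passed, and 11 had an unadjusted p under 0.05 toward lower in B against 0 toward higher; over all genes these were 1292 and 788 of 11422. In B 21 of the 50 fell and 4 rose, and in A 9 fell and 8 rose (all genes: 17.5% and 15.6% in B, 11% and 13.4% in A). Of 20 junction genes 1 (Ocln) and of 21 trophectoderm genes 1 (Krt8) passed, both lower in B, against 1.27% of all genes. At an unadjusted p under 0.05 the junction list had 1 higher and 6 lower in B, and the trophectoderm list 4 higher and 3 lower. Of 18 cell polarity genes and 10 genes of the apical cortex and microvilli none passed, with 3 and 2 at an unadjusted p under 0.05, each lower in B. Pard6b, a Par-complex subunit, fell in B with a response of -0.91, and its difference of -0.63 did not pass (limma, adjusted p = 0.162). Prkcz, the atypical kinase of that complex, fell in both crosses by 0.90 in A and 0.97 in B on the log2 scale. Ezr, which encodes the membrane-actin linker ezrin, had a wide interval for the difference, -1.22 to 1.55.

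Eif4ebp1, Hspd1, Hspe1, Aldoa and Acat2 each had a lower response in B. Eif4ebp1, the 4E-BP1 repressor of cap-dependent translation (ENSMUSG00000031490), fell in both crosses, from 176 ± 16.5 to 124 ± 11.7 FPKM in A and from 256 ± 43.9 to 83.99 ± 16.6 FPKM in B (difference -1.10, limma, adjusted p = 0.0236; 12 of 16 fits). Hspd1 and Hspe1 encode the mitochondrial chaperonin and its partner and lie head to head on chromosome 1. Hspd1 rose in A, from 139 ± 11.6 to 169.5 ± 12.8 FPKM, and fell in B, from 138 ± 14.4 to 105 ± 9.45 FPKM (difference -0.68, adjusted p = 0.0277; 7 of 16 fits). Hspe1 did the same, with a difference of -0.95 (adjusted p = 0.0386; 3 of 16 fits), and the 2 annotated genes overlap, so some reads may serve both. Aldoa, a glycolytic aldolase, rose in A from 94.5 ± 8.99 to 138 ± 20.6 FPKM and fell in B from 129 ± 11.5 to 97.9 ± 16.3 FPKM (difference -0.94, adjusted p = 0.0261; 9 of 16 fits). Acat2, which makes the acetoacetyl-CoA that feeds sterol synthesis, rose in A, and its response in B of -0.25 did not pass (difference -0.73; 2 of 16 fits).

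Aldoa was the 1 of 18 glycolysis genes that passed, and Acat2 the 1 of 21 sterol synthesis genes, against 1.27% of all genes. In these lists 5 and 7 had an unadjusted p under 0.05 toward lower in B and none toward higher. Over all genes tested 1292 of 11422 were lower and 788 higher. Ldha, lactate dehydrogenase A, had opposite responses of 0.62 in A and -0.53 in B that each passed, and its difference of -1.15 missed the threshold (limma, adjusted p = 0.0513). Dhcr7, the last enzyme of cholesterol synthesis, rose in both crosses (difference -0.61, adjusted p = 0.1). Of 27 genes of glutathione and detoxification and 38 of endocytosis and lysosome none passed for a difference. In the second list 18 fell in A and 21 in B, against 11% and 17.5% of all genes tested. Irf3, which drives the interferon response to double-stranded RNA, stood at 1.05 ± 0.0963 and 1.16 ± 0.304 FPKM in A and fell from 1.81 ± 0.142 to 0.7203 ± 0.112 FPKM in B (difference -0.77, adjusted p = 0.0386; 3 of 16 fits). It was the 1 of 11 measured interferon and dsRNA response genes that passed, against 1.27% of all genes. In that list the median difference was 0.14 while the median response was lower in B, -0.50 against 0.05 in A.

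Transcripts that peak at the 2-cell stage had unlike medians in the 2 crosses. Over 24 measured 2-cell genes the median response was -0.10 in A and 1.08 in B, where all genes tested had medians of 0.05 and -0.0027. In B 10 of the 24 rose and 3 fell, where 15.6% of all genes rose and 17.5% fell. In A 3 rose and 3 fell, where 13.4% of all genes rose and 11% fell. For the difference itself 1 passed, Tdpoz1, and 7 had an unadjusted p under 0.05 toward higher in B against 1 toward lower. Over all genes tested these were 788 and 1292 of 11422. These genes belong to repeated families, so how reads were divided among copies is uncertain.

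**Figure D5:**
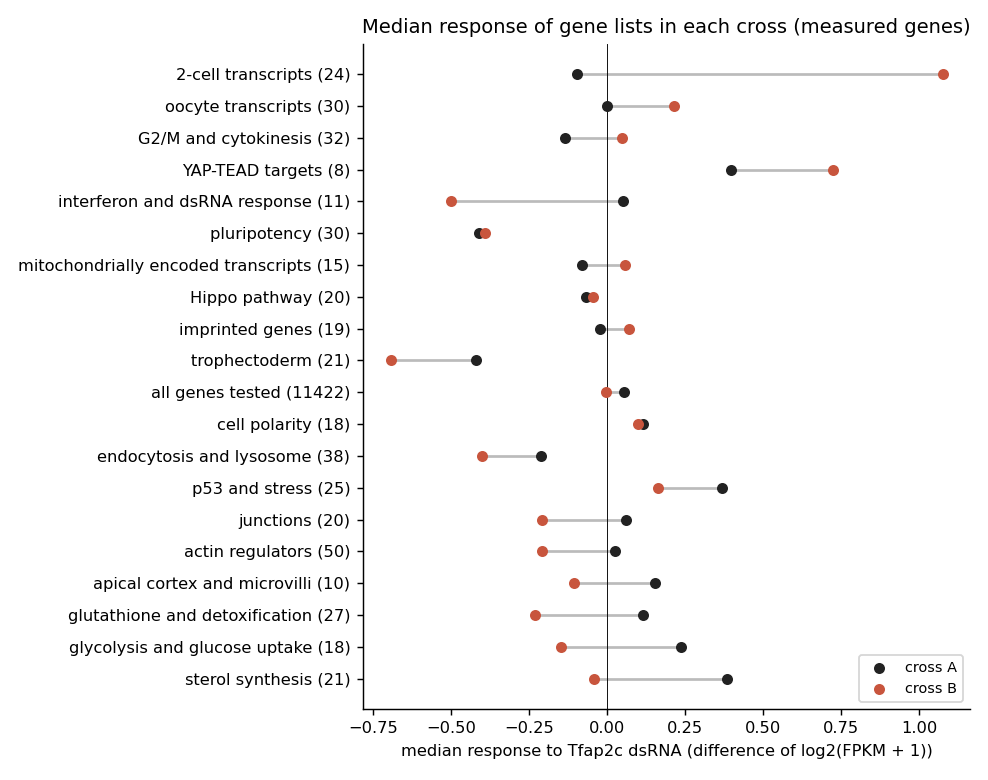
Median response to Tfap2c dsRNA of gene lists in cross A (black) and cross B (red), in differences of log2(FPKM + 1), with the number of measured genes in parentheses and lists ordered by median difference. The 2-cell list has medians of -0.10 in A and 1.08 in B, and all genes tested have medians near 0.

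Tdpoz1 lies in an array of related genes on chromosome 3, at 93651542 to 94267176 between Tdpoz2 and Gm4778, an interval chosen after its values were seen. All 13 tested genes in it had an estimate above 0 for the difference, from 0.02 to 2.53 with a median of 1.49. Over all genes tested 56.6% had an estimate below 0. In the interval 4 passed, against 1.27% of all genes: Tdpoz1, Gm9125, Gm10696 and Gm5286. In B 8 of the 13 rose, against 15.6% of all genes, and in A 1 passed, Tdpoz1, against 24.4%. Some copies had near-equal levels, as Tdpoz5 and Gm10697 (80.96 and 75.24 FPKM in B with the dsRNA), so the 13 are not separate measures. Tdpoz1 fell in A from 5.64, 11.2, 8.55 and 8.84 to 2.09, 2.56, 3.17 and 1.93 FPKM, without overlap. In B it stood at 10.01, 10.1, 8.19 and 6.69 FPKM without and at 9.16, 6.13, 18.9 and 15.2 FPKM with the dsRNA. Gm10696 stood at 5.23, 3.59, 5.04 and 4.82 FPKM in B without and at 26.1, 15.4, 60.1 and 22.2 FPKM with it, and in A at 3.47, 3.99, 5.56 and 4.62 and 4.31, 4.71, 6.402 and 5.27 FPKM. Gm5286 had the largest positive difference of the genes that passed, 2.53 (limma, adjusted p = 0.0368; 5 of 16 fits), with DoubleKD B1 at 81.7 FPKM and the other B libraries with the dsRNA at 15.1 to 35.1 FPKM. Gm10696 passed in 14 of 16 fits. Usp17lb and B020004J07Rik, 2-cell genes elsewhere, rose in B to 26.1 ± 18.7 and 17.2 ± 5.34 FPKM. In A B020004J07Rik rose as well, from 2.403 ± 0.9703 to 6.64 ± 1.302 FPKM, and Usp17lb went from 1.66 ± 1.103 to 3.38 ± 1.55 FPKM (limma, adjusted p = 0.159). Their differences between crosses of 1.91 and 1.27 did not pass.

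Of 32 genes of G2/M and cytokinesis 1 passed, and 11 had an unadjusted p under 0.05 toward higher in B and 1 toward lower; over all genes tested these were 788 and 1292 of 11422. The gene that passed was Tpx2, a spindle assembly factor: it fell in A from 79.01 ± 4.81 to 57.9 ± 2.15 FPKM, and in B went from 63.4 ± 4.83 to 69.1 ± 3.65 FPKM (difference 0.57, limma, adjusted p = 0.0261; 10 of 16 fits). Plk1, a mitotic kinase, rose in B with a response of 0.60, and its difference of 0.57 did not pass (adjusted p = 0.0705). The same held for Cdc25b, a phosphatase that activates CDK1 (difference 0.97, adjusted p = 0.0638). In A 12 of the 32 fell and 2 rose, and in B 4 fell and 6 rose (all genes: 11% and 13.4% in A, 17.5% and 15.6% in B).

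Of 19 measured imprinted genes, expressed from 1 parental copy, 2 passed, both higher in B, against 0.543% of all genes. At an unadjusted p under 0.05 there were 3 higher and 3 lower. Usp29 (ENSMUSG00000051527, chromosome 7, 6730559 to 6967220), a deubiquitinase gene of the Peg3 domain, stood at 1.03, 1.02, 0.93 and 0.559 FPKM in B without and at 3.84, 4.39, 2.97 and 2.36 FPKM with Tfap2c dsRNA. In A it stood at 4.64, 5.19, 3.41 and 3.48 FPKM without and at 4.58, 6.299, 3.78 and 4.07 FPKM with it. It rose in B toward the level that A held throughout, with a difference of 1.08 (limma, adjusted p = 0.0231; 15 of 16 fits, missing without Tead4KD B2 at 0.0601). Mcts2, a retrogene, rose in B from 23.9 ± 2.93 to 34.8 ± 3.99 FPKM and in A went from 29.6 ± 4.83 to 25.3 ± 4.06 FPKM (difference 0.73, adjusted p = 0.0455; 2 of 16 fits), and reads from its parent gene Mcts1 may be shared with it. Parental copies were not told apart here.

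The remaining lists gave no gene that passed for a difference, against 1.27% of all genes. They were 20 Hippo pathway genes, 8 YAP-TEAD targets, 4 AP-2 and TEAD factors, 30 oocyte transcripts, 15 mitochondrially encoded transcripts, 3 blood markers and 1 cumulus marker, and no sperm marker was measured. Of the oocyte transcripts 6 had an unadjusted p under 0.05 toward higher in B and 1 toward lower, against 788 and 1292 of all 11422 genes. Ctgf, a YAP-TEAD target, rose in both crosses, by 2.52 in A and 1.73 in B on the log2 scale, with an interval of -1.83 to 0.26 for the difference. Cyr61, another, passed in neither cross (difference 0.96, limma, adjusted p = 0.282).

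Ly6a, Smpdl3a, Dap, BC048679 and Crip1, looked up with earlier results of these data known, fell in both crosses. Ly6a, a GPI-anchored surface antigen, fell from 121 ± 44.8 to 2.496 ± 1.47 FPKM in A and from 247 ± 70.8 to 23.5 ± 9.399 FPKM in B, with a difference of 1.76 that did not pass (limma, adjusted p = 0.0642). Smpdl3a, a phosphodiesterase of the acid sphingomyelinase family, fell from 105 ± 9.3 to 2.82 ± 3.203 FPKM in A and from 165 ± 19.4 to 11.96 ± 9.49 FPKM in B. Dap fell by 4.27 in A and 4.15 in B on the log2 scale, BC048679 by 4.09 and 4.46, and Crip1 by 4.25 and 3.37. Their 95% intervals for the difference were wide, -1.02 to 1.28 for Dap, -1.40 to 0.66 for BC048679, -0.33 to 2.10 for Crip1 and -0.48 to 2.49 for Smpdl3a, and each reached beyond 1 log2 unit on at least 1 side. Fgfr2, a receptor of FGF signals, and Cldn4, a claudin of tight junctions, fell in both crosses with differences of 0.72 (adjusted p = 0.247) and -0.23 (0.785). Gata3, a trophectoderm factor, passed in neither cross (difference -0.62, adjusted p = 0.474).

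Tekt2, a tektin of cilia and flagella, and Ier3, an immediate early gene, rose in both crosses. Tekt2 went from 13.7 ± 6.16 to 44.2 ± 10.9 FPKM in A and from 8.25 ± 4.26 to 33.1 ± 16.8 FPKM in B, and its difference was 0.18 (95% interval -1.01 to 1.37). Ier3 had a difference of -0.15 (95% interval -1.40 to 1.10). Chac1, a glutathione-degrading enzyme of the stress response, fell in B from 5.58 ± 4.12 to 0.53 ± 0.183 FPKM, and its difference of -1.66 did not pass (limma, adjusted p = 0.0766). Trib3, a pseudokinase of the same response, rose in A, with a difference of -1.15 (adjusted p = 0.104). Ifitm2, an interferon-induced membrane protein, fell in both crosses with a difference of -0.91 (adjusted p = 0.065).

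The comparison was repeated within the 8 libraries without and the 8 with Tead4 dsRNA. Without it 3 genes passed (0.0263% of those tested; 1764 at an unadjusted p under 0.05), and with it 2 passed (0.0175%; 1299). The first set was Eif4ebp1, at -1.51, with the predicted genes Gm13222, at -8.94, and Gm27743, at -21.96. The second was Gm25291, at 7.805, and RP23-172B15.2, at 3.64. In the other set of libraries Gm13222 and Gm27743 had the opposite sign, at 4.47 and 5.39, and the others kept theirs. All of these genes were named after their values were seen, and among them only Eif4ebp1 also passed over all 16 libraries. Each of the 145 genes had the same sign in both sets, a direction that enters the estimate over all 16. Across all genes the 2 sets, which share no library, had Pearson's r = 0.237 for the difference between crosses, a description over genes. A test of whether the difference itself changed with Tead4 dsRNA found 0 genes (0% of 11422; limma, 757 at an unadjusted p under 0.05). The response to Tead4 dsRNA, tested between crosses in the same way, gave 0 genes too (0%; 895 at an unadjusted p under 0.05).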

How the data were processed

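Polyadenylated RNA of mouse 8-cell embryos was measured in 16 libraries, each a pool of 10 embryos, by a Smart-seq2 procedure, per the labels' protocols. The authors deposited 1 table of FPKM values per gene. CASAVA, Trim Galore, STAR, Cufflinks and mm10 are named in the submitters' processing notes; none of the sources used here gives versions, annotation or strand setting. Of 43496 lines, 59 repeated an identifier and were summed, leaving 43437 genes; 27 names that had become dates were restored. RefSeq records (GRCm38.p6, the assembly of mm10) were matched by symbol or synonym for 33075 genes, 10904 of those tested.

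The log2(FPKM + 1) of 11422 genes was computed here and modelled by limma 3.58.1 (R 4.3.3; lmFit and eBayes, trend on), with terms for Tfap2c dsRNA, cross, their interaction and Tead4 dsRNA. Adjusted p-values are Benjamini-Hochberg over all genes tested, all tests are two-sided, and the fit was tested on simulated data. Single values were compared by exact permutation of libraries in Python 3.11.15. No read counts were used here, so precision rests on the spread between libraries.

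Gene lists, their contents and the genes looked up were chosen with earlier results of these data known. Named genes were Tfap2c, Tead4, the 10 largest differences in each direction that passed with a mean of at least 5 FPKM in 1 cell and the same sign with and without Tead4 dsRNA, up to 3 per list by lowest p, and a short list looked up always; from these the text names those a reader can place. The 23 lists were trophectoderm, pluripotency, actin regulators, cell polarity, junctions, apical cortex and microvilli, YAP-TEAD targets, Hippo pathway, AP-2 and TEAD factors, p53 and stress, interferon and dsRNA response, endocytosis and lysosome, sterol synthesis, glycolysis and glucose uptake, glutathione and detoxification, G2/M and cytokinesis, 2-cell transcripts, oocyte transcripts, mitochondrially encoded transcripts, imprinted genes, and cumulus, sperm and blood markers. Alternatives were another pseudocount, no filter, 2 rescalings, no variance trend, other Tead4 terms, a replicate block and leaving out each library.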

Additional observations from a re-analysis of the deposited data

Results flagged for a closer look

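For 34 genes named above, a test of the difference itself found that the response to Tfap2c dsRNA was unequal in the 2 crosses (limma, adjusted p under 0.05 over all genes tested). The response in B minus the response in A, in differences of log2(FPKM + 1), was above 0 for Gm5286 (2.53), Gm10696 (2.13), Tdpoz1 (1.81), Gm5532 (1.81), Gata4 (1.65), Nanog (1.48), Mixl1 (1.38), Spic (1.32), Tbc1d1 (1.31), Myc (1.18), Gnai2 (1.13), Wars2 (1.12), Usp29 (1.07), Mcts2 (0.73) and Tpx2 (0.57). It was below 0 for H2-K1 (-1.75), Plin2 (-1.66), Slc28a2 (-1.48), H2-D1 (-1.45), Krt8 (-1.37), Ocln (-1.32), Tmem254c (-1.28), Tmem254b (-1.27), Tmem254a (-1.26), Sec11c (-1.11), Eif4ebp1 (-1.10), Arpc5 (-0.96), Hspe1 (-0.95), Aldoa (-0.94), Fth1 (-0.86), Irf3 (-0.77), Trp53 (-0.77), Acat2 (-0.73) and Hspd1 (-0.68).

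Single libraries stood apart from the other 3 of their cell (the highest or lowest value beyond Dixon's critical value for 4 libraries) in 17 of 260 cells examined. Chance marks about 1 in 20 cells, and a cell mixes libraries with and without Tead4 dsRNA. In dsGFP A1, Pou5f1 at 40.5 FPKM stood apart. In DoubleKD A1, Smpdl3a at 7.62 and Ldha at 18.6 FPKM stood apart. In Tfap2cKD A2, Chac1 at 0.241, Acat2 at 12.2 and Cyr61 at 6.81 FPKM stood apart. In Tfap2cKD A1, Tmem254b at 57.2, Tmem254c at 65.7 and Ctgf at 11.9 FPKM stood apart. In DoubleKD B2, Arpc5 at 78.6, Sec11c at 72.3 and Tbc1d1 at 4.26 FPKM stood apart. In Tead4KD A2, Acat2 at 11.3, B020004J07Rik at 0.956 and Wars2 at 39.3 FPKM stood apart. In dsGFP A2, Irf3 at 1.20 FPKM stood apart. In dsGFP B1, Gm5532 at 6.42 FPKM stood apart.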

How the results depend on the processing

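Counts of genes whose response differed between crosses moved with the model. Against 145, there were 22 with no filter on low values (25703 genes tested), 35 with no Tead4 term, 366 with 8 treatment by cross cells and 90 with the replicate block. The count was 145 with a pseudocount of 0.1 in place of 1, 105 without the variance trend and 202 with a Tead4 by cross term. All 145 genes kept their sign under every one of these settings, which reuse the libraries they were picked on. The difference within libraries without Tead4 dsRNA (3 genes) gave 5 with a pseudocount of 0.1, 90 with no filter and 5 with the replicate block. Within those with Tead4 dsRNA (2 genes) the same settings gave 1, 90 and 1, and between the 2 backgrounds (0 genes) no filter gave 32. The cause of these changes was not tested.

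Leaving out 1 library at a time gave 7 to 366 genes for the difference between crosses, 2 to 8 without and 3 to 23 with Tead4 dsRNA, 0 to 2 between the backgrounds and 0 to 1 for Tead4 dsRNA by cross. The Tfap2c response in cross A then passed for 2210 to 2848 genes and the Tfap2c response in cross B for 3145 to 3881. Fitted alone, the counts were 1950 to 2426 (Tfap2c response, cross A libraries alone) and 2429 to 3128 (Tfap2c response, cross B libraries alone). For Tfap2c mRNA the difference ran from 0.29 to 0.40. The differences between libraries 1 and 2 had correlations over genes from -0.17 to 0.18 over 12 pairs of treatments within a cross. Such values cannot exclude a shared litter or day, so whether library numbers pair the samples is not known. The block result is given as a count only. The labels give the libraries the same numbers in each group and no shared litter or day.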
